A study of Drosophila melanogaster with 36 samples.

Results

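The larval serum proteins and fat body proteins of Drosophila melanogaster were taken by their FlyBase symbols from the gene counts of adult flies. The 6 genes Lsp1alpha, Lsp1beta, Lsp1gamma, Lsp2, Fbp1 and Fbp2 were found among the 17494 genes of the head and muscle libraries and among the 17612 genes of the whole-fly libraries. Polyadenylated RNA had been read in triplicate from the wild-type strain 5905 at the ages of 3, 15, 30 and 45 d, once from heads and once from muscles. Flies of 3 d had also been read whole in 3 genotypes, in 4 libraries each. The transgene group carried gcn5c450 and tub-GAL4 on one chromosome and c450 and UAS-HA-Gcn5 on the other, so that a tubulin promoter drove the yeast activator GAL4 and GAL4 drove a tagged Gcn5 on the mutant background; the labels call it an overexpression. The mutant group was homozygous for the same allele, gcn5c450/c450, which the labels call loss of function, and the WT group was strain 5905. Among whole flies that strain is given for WT only, so genetic background and gcn5 allele cannot be told apart in comparisons with WT. Gcn5 is the catalytic histone acetyltransferase of coactivator complexes that include SAGA and ATAC. Neither the sex of the animals nor the independence of the replicates is stated in the labels, and p-values therefore measure the spread between these libraries, which may be technical.

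Larval serum proteins are hexamerins, storage proteins that the larval fat body secretes into the blood and takes back before metamorphosis as a reserve of amino acids. Lsp1alpha, Lsp1beta and Lsp1gamma encode subunits that can assemble into mixed hexamers, and Lsp2 encodes a hexamerin that assembles with itself. Fbp1 encodes an ecdysone-induced protein of the larval fat body that takes part in the uptake of larval serum proteins, and Fbp2 encodes a fat body protein related in sequence to alcohol dehydrogenase. Their main time of expression is the last larval stage, and the data here are from adults.

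Counts in genes came to 3.18 to 4.36 M per head library, 3.00 to 3.68 M per muscle library and 1.62 to 2.82 M per whole-fly library. Levels are given as CPM (counts per M counts in genes) after TMM scaling, which corrects for RNA composition. A count of 0 allows a level of up to 3 counts, which was 0.605 to 0.909 CPM in heads, 0.793 to 1.70 CPM in muscles and 1.06 to 1.82 CPM in whole flies, for counting error only. The third muscle library of 3 d stood apart. Its Spearman correlations over genes with the other 3 d muscle libraries were 0.841 and 0.843, and the lowest among all other pairs of replicates was 0.971. Gcn5 averaged 2956 ± 166 CPM in transgene flies, 36.7 ± 0.557 CPM in mutants and 35.8 ± 7.08 CPM in WT (SD, n = 4 each), so the transcript level set the transgene group apart but did not separate mutant from WT. All 9 muscle markers were higher in muscles than in heads at each age, and all 8 photoreceptor markers were lower. The muscle libraries also held gut markers, with a summed level of 10270 to 25600 CPM against 45.0 to 128 CPM in heads. Their summed level of the 2 oenocyte markers was 5615 to 11720 CPM, against 1.01 to 57.3 CPM in heads.

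The annotation places the genes on 3 chromosome arms. Lsp1alpha (FBgn0002562) lies on X:12490291-12492982, Lsp1beta (FBgn0002563) on 2L:898500-901316 and Lsp1gamma (FBgn0002564) on 3L:66430-68995, all on the plus strand and with 2 exons each. Lsp2 (FBgn0002565) is a gene of 1 exon on 3L:12129393-12131869, plus strand, and an antisense RNA gene, asRNA:CR11538, overlaps it. Fbp1 (FBgn0000639) lies on 3L:14094589-14098053, minus strand, and Fbp2 (FBgn0000640) on 2L:9426784-9427917, plus strand, where it overlaps CG42847. Whole-fly reads were counted without strand, and the strand setting for heads and muscles is not given in the sources used here. Strand therefore cannot assign reads in these overlaps to Lsp2 or Fbp2. In heads 3.52 to 3.89% of reads were tallied as ambiguous and entered no gene, and in muscles 2.49 to 3.78%. How many of these came from Lsp2 or Fbp2 is not known, so the levels of both may be too low.

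Lsp1beta was on average the most abundant of the 6 transcripts in every group except the mutants. Per kilobase of exon its level averaged 49.5, 80.2, 84.0 and 31.4 RPKM in heads at 3, 15, 30 and 45 d, and 42.5, 84.1, 78.1 and 35.3 RPKM in muscles. In whole flies it averaged 4.24 RPKM in the transgene group, 2.33 RPKM in mutants and 29.2 RPKM in WT. Lsp1gamma led in mutants with 5.66 RPKM and no overlap with Lsp1beta, and in the transgene group the range of Lsp1beta overlapped that of Lsp2, at 2.27 RPKM. The next transcript per length in heads was Lsp2 at 3 and 15 d, with 3.63 and 1.42 RPKM, and Lsp1alpha at 30 and 45 d, with 3.54 and 5.25 RPKM. The ranges of Lsp2 and Lsp1alpha overlapped at 15 and 30 d, and did not at 3 and 45 d. In muscles the next was Lsp1gamma at 3 d, with 30.7 RPKM and a range that overlapped that of Lsp1beta, and Lsp1alpha at the later ages, with 1.03, 5.24 and 7.45 RPKM.

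**Figure D1:**
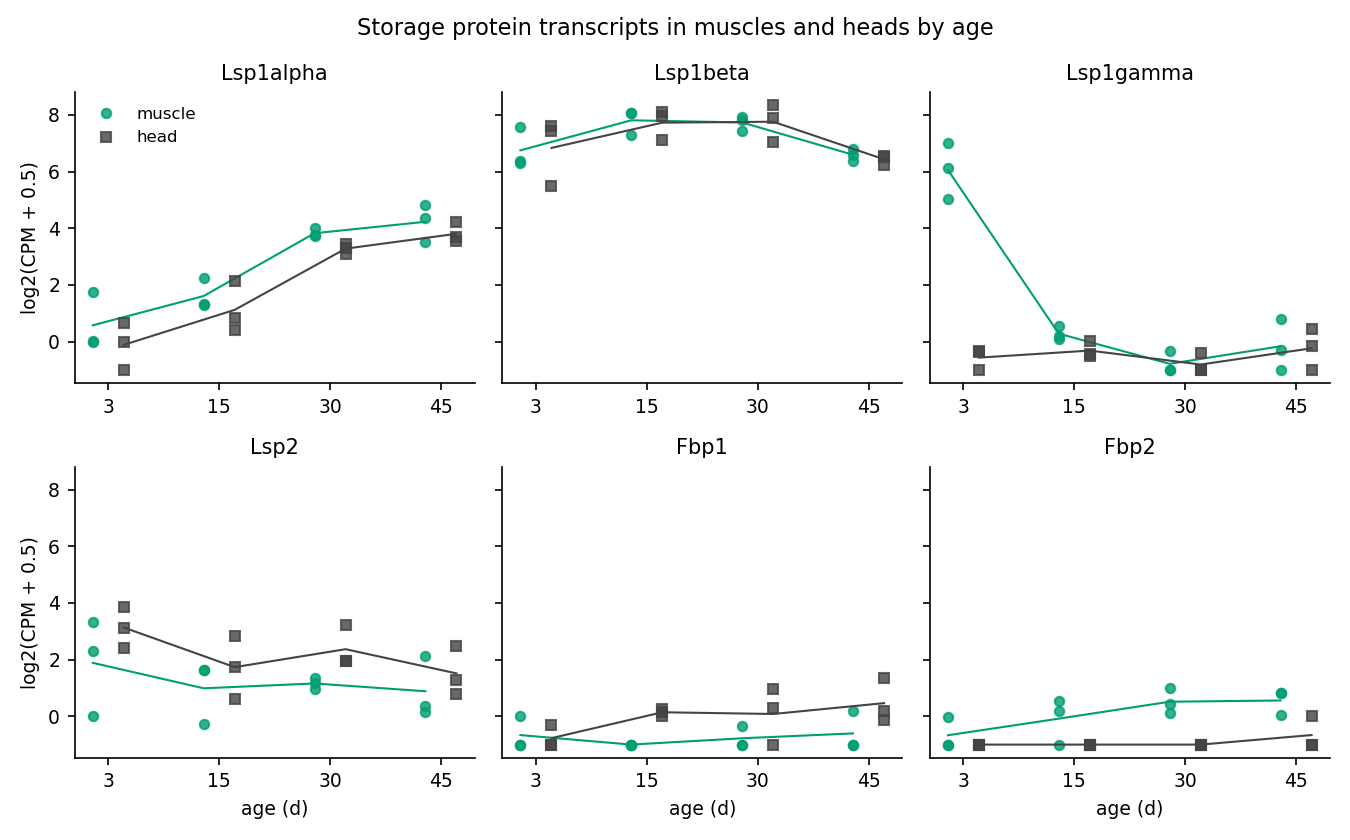
Levels of the 6 genes in muscles (circles) and heads (squares), as log2(CPM + 0.5) against age in days with the ages equally spaced. Each point is 1 library and the lines join the means of 3 libraries. Lsp1alpha climbs with age in both tissues, Lsp1gamma is high only in the 3 d muscles among these libraries, and Fbp1 and Fbp2 stay near 1 CPM or below.

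Lsp1alpha rose with age in heads. Its level was 0, 0.498 and 1.09 CPM in the 3 libraries of 3 d and 3.93, 1.28 and 0.816 CPM at 15 d. It was 9.37, 10.5 and 7.97 CPM at 30 d and 12.3, 11.1 and 18.0 CPM at 45 d. The libraries of 30 and 45 d all lay above those of 3 and 15 d, and the libraries of 3 and 15 d overlapped. At 45 d against 3 d the log2 change was 4.63 ± 0.52 (SE; adjusted p = 4.49e-06, edgeR), and at 30 d against 3 d it was 4.08 ± 0.56 (adjusted p = 6.29e-05). At 45 d against 15 d the log2 change was 2.80 ± 0.38 (adjusted p = 0.000186), while the 15 d value of 1.83 ± 0.77 missed the threshold of 0.05 (adjusted p = 0.131). The 3 d level rested on 6 counts over 3 libraries, and the ratio of 45 d to 3 d from summed counts was 24.7 with a 95% counting interval of 11.2 to 68.3. Lsp1alpha passed the filter on low counts only through the later ages, so a difference from 3 d was a condition of its being tested in heads.

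In muscles Lsp1alpha took a similar course. Its level was 0.504, 0.493 and 2.84 CPM at 3 d, 4.21, 1.93 and 2.0 CPM at 15 d, 15.6, 13.0 and 12.7 CPM at 30 d, and 20.1, 10.9 and 27.7 CPM at 45 d. Again every library of 30 and 45 d lay above every library of 3 and 15 d. The log2 change was 3.97 ± 0.56 at 45 d against 3 d (adjusted p = 0.000301), 3.47 ± 0.58 at 30 d against 3 d (adjusted p = 0.00153) and 2.83 ± 0.43 at 45 d against 15 d (adjusted p = 0.00676). The last of these calls depended on single libraries: without the second or the third 15 d library the adjusted p was 0.0578 and 0.0659. As in heads, Lsp1alpha passed the filter on low counts in muscles only through the 30 and 45 d libraries. The 15 d step from 3 d, 1.14 ± 0.75, missed the threshold (adjusted p = 0.423). Between the tissues Lsp1alpha differed by 0.43 to 1.11 on the log2 scale (muscle minus head) at the 4 ages, with adjusted p between 0.195 and 0.591. Without the second muscle library of 45 d the difference at that age passed the threshold, at 0.80 (adjusted p = 0.0465). The change with age (muscle minus head, 3 to 45 d) differed by -0.59 ± 1.11, with a 95% interval that reached down to -2.9 (adjusted p = 0.808).

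Lsp1beta followed another course, with its highest levels at the middle ages. In heads the libraries held 44.5, 171 and 193 CPM at 3 d, 275, 140 and 247 CPM at 15 d, 132, 237 and 324 CPM at 30 d, and 75.5, 92.7 and 91.0 CPM at 45 d. Libraries of 1 age spread widely until 30 d and closely at 45 d, and the 45 d libraries lay below all those of 15 and 30 d but within the range of 3 d. At 45 d against 15 d Lsp1beta fell by 1.32 ± 0.38 on the log2 scale (adjusted p = 0.0406). That call was lost on leaving out any of 5 of the 6 libraries, the exception being the second one of 15 d, with adjusted p between 0.0592 and 0.133. Against 3 d its log2 changes were 0.72 ± 0.38 at 15 d, 0.82 ± 0.38 at 30 d and -0.60 ± 0.39 at 45 d, with adjusted p of 0.227, 0.112 and 0.258. Without the first library of 30 d the 30 d change passed (1.11, adjusted p = 0.0354), and without the first library of 3 d the 45 d change did (-0.996, adjusted p = 0.0182).

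In muscles Lsp1beta had 83.2, 78.4 and 189 CPM at 3 d, 270, 156 and 267 CPM at 15 d, 173, 228 and 243 CPM at 30 d, and 83.0, 96.5 and 111 CPM at 45 d. The 45 d libraries lay below all of 15 and 30 d here too. No change passed the threshold: the log2 changes against 3 d were 1.01 ± 0.33 at 15 d, 0.89 ± 0.33 at 30 d and -0.26 ± 0.33 at 45 d (adjusted p = 0.0850, 0.0914 and 0.641), and the change at 45 d against 15 d was -1.27 ± 0.33 (adjusted p = 0.0840). The high 3 d value belonged to the library that stood apart. Without it the 15 d and 30 d changes were 1.54 and 1.42 (adjusted p = 5.61e-05 and 8.08e-05), and the 45 d change was 0.27 (adjusted p = 0.372). Muscles and heads differed in Lsp1beta by -0.23 to 0.16 on the log2 scale at the 4 ages, with adjusted p between 0.652 and 0.909 and 95% intervals that reached -1.10 and 1.03 at the widest.

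Lsp1gamma set the young muscles apart from all other head and muscle libraries. It had 69.1, 129 and 32.3 CPM in muscles at 3 d, from 137, 262 and 57 counts. The muscles of 15, 30 and 45 d held 7, 1 and 5 counts over 3 libraries, with no library above 1.25 CPM, and the 12 head libraries held 13 counts in all, with none above 0.862 CPM. The ratio of summed levels to those of 3 d muscles was 0.00913 at 15 d (95% counting interval 0.00365 to 0.0190), 0.00123 at 30 d (3.10e-05 to 0.00687) and 0.00625 at 45 d (0.00202 to 0.0147). In the fit the log2 changes were -6.64 ± 0.65, -9.11 ± 0.83 and -7.16 ± 0.68 (adjusted p = 3.90e-05, 1.51e-05 and 1.38e-05). Lsp1gamma was tested in muscles only because of its 3 d level. Among the 3 d libraries the one that stood apart had the lowest level of Lsp1gamma, whereas it had the highest level of Lsp1alpha, Lsp1beta and Lsp2.

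At 3 d muscles exceeded heads in Lsp1gamma, by a log2 difference of 8.48 ± 0.65 (adjusted p = 2.06e-10). The heads of 3 d held 2 counts, and the ratio of muscles to heads was 434 with a counting interval of 119 to 3591. The log2 change from 3 to 45 d in muscles minus that in heads was -8.33 ± 1.95 (adjusted p = 0.00924). Without the first head library of 45 d, which held 4 of the 6 head counts at that age, this difference was -7.44 with an adjusted p of 0.175. Sums of several marker lists also differed between the 3 d muscles and those of later ages, in both directions. The 9 muscle markers summed to 18870 to 50940 CPM at 3 d, against 7851 to 9698 CPM at the later ages. The 8 photoreceptor markers summed to 106 to 519 CPM against 90.9 to 130 CPM. The gut markers summed to 10940 to 25600 CPM against 10270 to 12110 CPM. The photoreceptor and gut sums thus overlapped those of the later ages. Single markers could differ all the same. At 45 d against 3 d Arr1, ninaE and Arr2 were called lower, 3 of 4 photoreceptor markers tested. Of 9 gut markers tested 2 were called lower and 1 higher, where 19.3% of all genes were called. Adult fat body markers were lower at 3 d, with 8724 to 11310 CPM against 13540 to 21370 CPM. The hemocyte sum was lower at 3 d too, with 498 to 1400 CPM against 1655 to 1892 CPM. Of 4 hemocyte markers tested 0 were called at 15, 30 or 45 d against 3 d, by edgeR or DESeq2. At 45 d 2 of the 4 had an unadjusted p under 0.05 in edgeR. The part of these tissues in the Lsp1gamma level was not tested.

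The larval and pupal marker list bears on the same libraries. None of its 20 genes, which encode larval glue proteins, ecdysone-induced proteins of the prepupa and larval or pupal cuticle proteins, passed the filter on low counts for edgeR in any fit. DESeq2, run without that filter, called Lcp1, a larval cuticle gene, lower in muscles at 15 d against 3 d (adjusted p = 0.0114) and Sgs1, a glue gene, lower in muscles than in heads at 3 d (adjusted p = 0.0495). Lcp1 had 0 to 0.324 CPM in muscles at 15 d, against 1.48 to 5.10 CPM at 3 d. Their summed level was 3.45 to 10.8 CPM in muscles at 3 d, with 13 of the 20 at 0 in all 3 libraries, against 1.43 to 5.72 CPM at the later ages. In heads it was 3.67 to 8.17 CPM over all ages. In whole flies it was 0.40 to 4.13 CPM in the transgene group, 1.96 to 3.03 CPM in mutants and 0.875 to 4.01 CPM in WT. In bulk libraries such as these, fewer cells of a type and less RNA per cell cannot be told apart.

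Lsp2 fell with age in heads. Its level was 4.85, 14 and 8.18 CPM at 3 d, 6.70, 1.02 and 2.85 CPM at 15 d, 3.36, 3.35 and 8.71 CPM at 30 d, and 1.94, 1.21 and 5.07 CPM at 45 d. The ranges overlapped at all ages. The log2 change at 45 d against 3 d was -1.74 ± 0.57 (adjusted p = 0.0236), and at 15 and 30 d it was -1.33 ± 0.53 and -0.78 ± 0.51 (adjusted p = 0.111 and 0.266). The 45 d call was lost without the second library of 3 d, or the first or the second of 45 d (adjusted p = 0.160, 0.0765 and 0.106). In muscles Lsp2 had 0.504 to 9.64 CPM at 3 d and 0.321 to 3.82 CPM at the later ages, too low to be tested there. In the fit of both tissues its log2 difference, muscle minus head, lay between -1.54 and -0.63 at the 4 ages, with adjusted p between 0.112 and 0.581.

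The fat body proteins were close to the limit of detection. Fbp1 held 1, 8, 9 and 13 counts over the 3 head libraries of 3, 15, 30 and 45 d, and 1, 0, 1 and 2 counts in muscles. Its highest head level was 2.03 CPM, in 1 library of 45 d, and the ratio of 45 to 3 d was 10.5 with a counting interval of 1.58 to 448. Fbp2 was seen more often in muscles, with 1, 5, 10 and 10 counts by age and a highest level of 1.48 CPM. The 12 head libraries held 2 counts of Fbp2, both in 1 library of 45 d. Neither passed the filter on low counts in any fit. In whole flies Fbp1 had 1 count in the transgene group and none in mutants or WT, and Fbp2 had 1 count in the transgene group, 2 in mutants and none in WT, levels at which no difference was detectable.

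Set against all genes, the calls of the members were as follows. Of the 3 members tested in heads, 0 changed at 15 d against 3 d, where 12.9% of all tested genes did; 2 of the 3 had an unadjusted p under 0.05 and DESeq2 also called 0. At 30 d against 3 d 1 member changed (31.3% of all genes), at 45 d against 3 d 2 (35.7%), and at 45 d against 15 d 2 (9.14%). In muscles 1 of 3 changed at 15 d (8.08%), 2 at 30 d (14.2%) and 2 at 45 d (19.3%) against 3 d, and 1 at 45 d against 15 d (1.69%). Between muscles and heads 1 of 4 members differed at 3 d (59.1%). None did at 15 d (49.2%), 30 d (48%) or 45 d (48.8%), ages at which 0 members had an unadjusted p under 0.05 in edgeR; DESeq2 called 0, 1 and 0, the 1 being Fbp2 at 30 d. The change from 3 to 45 d differed between tissues for 1 of 4 members, against 6.79% of all genes. These comparisons share libraries, and no more than 4 members were tested in any of them. Lsp1alpha was tested with age only through the later ages, and Lsp1gamma only through the muscles of 3 d. The filter thus favoured their calls, so these counts cannot be weighed against the share over all genes.

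**Figure D2:**
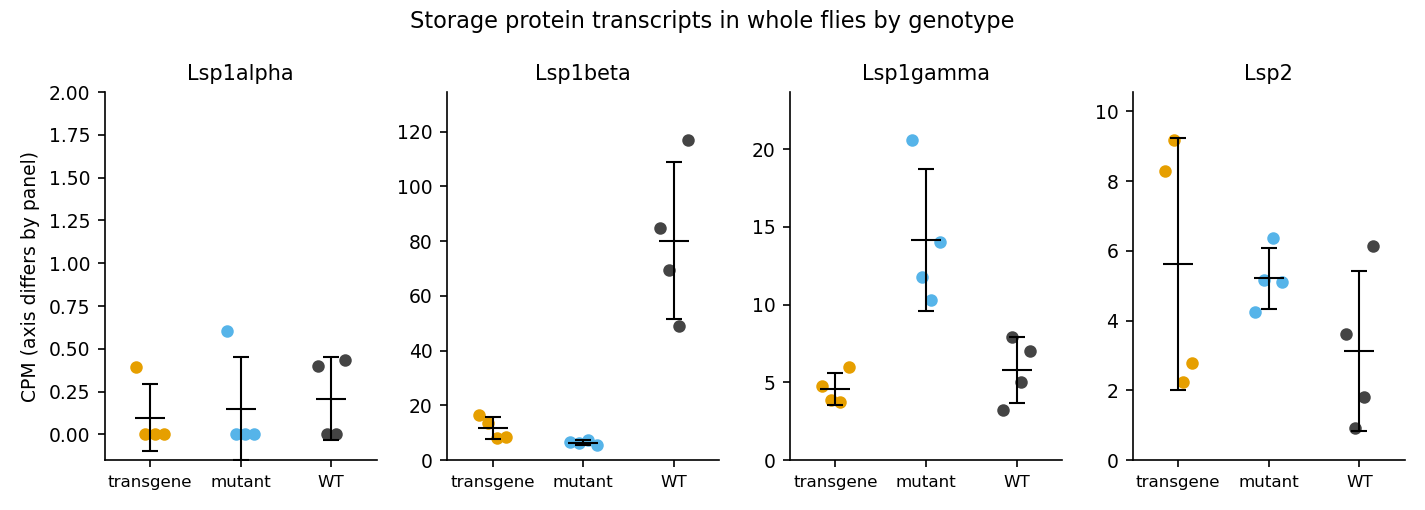
Levels of the 4 larval serum protein genes in whole flies of 3 d, in CPM with an axis of its own for each gene. Points are libraries (4 per genotype, ordered transgene, mutant, WT), the wide mark is the mean and the bars are 1 SD. Lsp1beta is low in transgene and mutant flies, and Lsp1gamma is high in mutants.

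In whole flies the subunits of the Lsp1 hexamer went in opposite directions in the mutant. Lsp1beta had 6.66, 6.11, 7.34 and 5.53 CPM in mutants, against 84.9, 69.6, 49.1 and 117 CPM in WT. The highest mutant lay far below the lowest WT library. Lsp1beta fell in mutants by 3.65 ± 0.25 on the log2 scale (adjusted p = 1.65e-12). Lsp1gamma had 20.6, 11.8, 10.3 and 14 CPM in mutants, against 3.20, 7.94, 5.0 and 7.0 CPM in WT, again without overlap, and rose by 1.28 ± 0.30 (adjusted p = 0.00258). Both rest on few counts per library, 11 to 15 for Lsp1beta in mutants and 8 to 17 for Lsp1gamma in WT. Lsp2 had 4.24, 5.17, 6.4 and 5.10 CPM in mutants, against 3.60, 0.934, 1.82 and 6.13 CPM in WT, and its log2 change of 0.72 ± 0.48 missed the threshold (adjusted p = 0.379). Lsp1alpha had no more than 1 count in any whole-fly library.

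In the transgene group Lsp1gamma lay below the mutants, while Lsp1beta stayed below WT. Lsp1gamma had 4.74, 3.88, 3.75 and 6.0 CPM in the transgene group. It fell by 1.60 ± 0.30 on the log2 scale against mutants (adjusted p = 0.000412), and against WT its log2 change was -0.32 ± 0.34 with a 95% interval down to -1.02 (adjusted p = 0.588). Lsp1beta had 16.6, 13.4, 8.26 and 8.40 CPM in the transgene group, all above the mutants and all below WT. Its log2 change was 0.87 ± 0.33 against mutants (adjusted p = 0.0963) and -2.78 ± 0.22 against WT (adjusted p = 2.75e-11). Lsp2 had 8.29, 9.18, 2.25 and 2.80 CPM in the transgene group, with log2 changes of 0.11 ± 0.43 against mutants and 0.83 ± 0.46 against WT (adjusted p = 0.917 and 0.244).

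Of the 3 members tested, 2 changed in mutants against WT, where 15.2% of all genes did. In the transgene group 1 changed against mutants (9.38%) and 1 against WT (15.8%). The 3 comparisons share their groups in pairs. The authors' deposited table gave the same calls for these members, with log2 changes for Lsp1beta of -3.65 for mutants against WT, 0.87 for the transgene group against mutants and -2.78 for the transgene group against WT. For Lsp1gamma the authors' deposited table gave 1.29, -1.61 and -0.32 for the same comparisons.

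**Figure D3:**
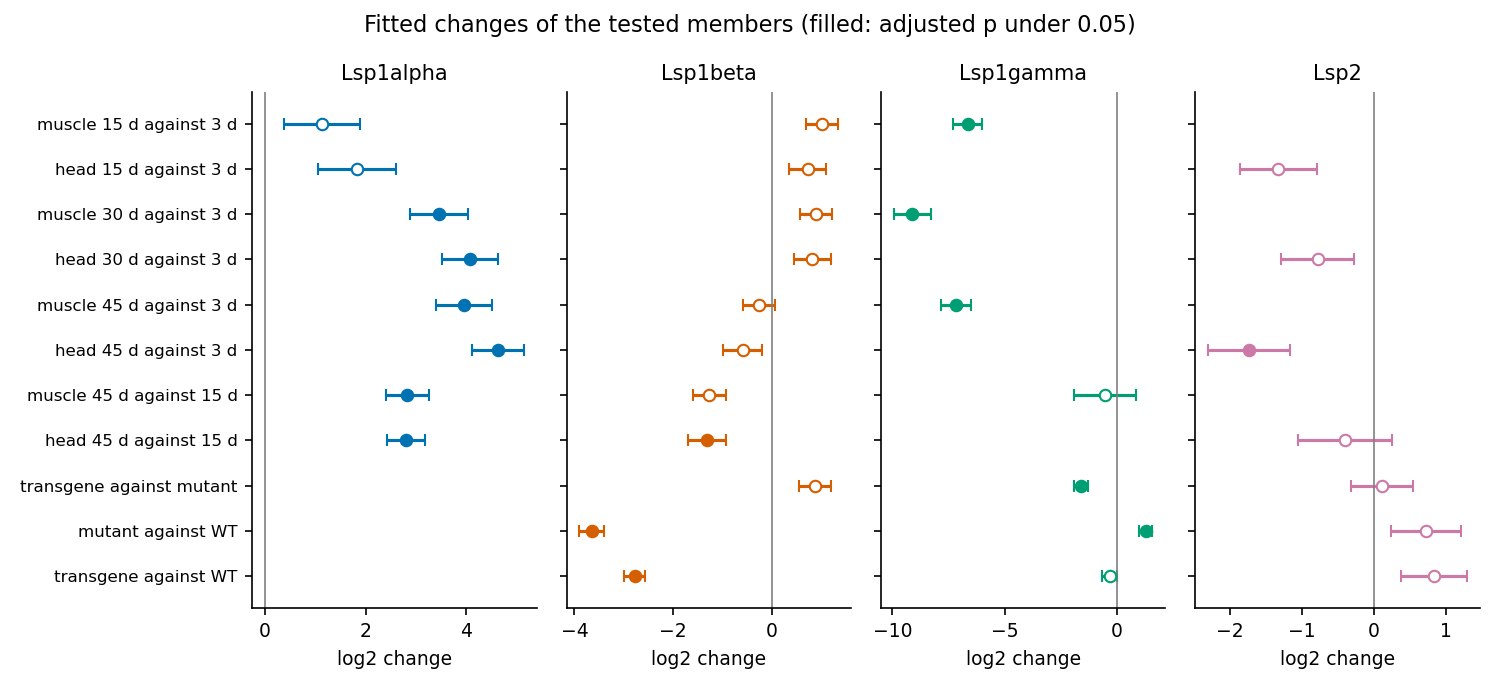
Fitted log2 changes of the tested members with 1 SE, by comparison, on an axis of its own for each gene. Filled points passed an adjusted p of 0.05 in edgeR; a missing point means that the gene was not tested in that fit. Lsp1alpha is to the right of 0 at every age in both tissues, Lsp1beta is left of 0 for mutants and transgene flies against WT, and Lsp1gamma is right of 0 for mutants.

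The ratio of Lsp1beta to Lsp1gamma measures their divergence within a library. Its log2 value was 1.17 ± 0.63 in the transgene group and -1.24 ± 0.50 in mutants (SD, n = 4 each), a difference of 2.41 (exact two-sided permutation test, p = 0.029, the smallest that 4 against 4 libraries allow). Ratios were considered among the 3 Lsp1 subunits only, in heads and in muscles at 45 d against 3 d and in each pair of genotypes, which made 15 combinations. This was the only 1 of them in which both genes had 10 or more counts in every library. With 5 or more counts 3 of the 15 qualified, all of this pair of genes in whole flies. In WT the log2 ratio was 3.67 ± 0.74. The difference was -4.90 for mutants minus WT and -2.5 for the transgene group minus WT, each with an exact permutation p of 0.029, which remained 0.029 after adjustment over the 3 comparisons.

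**Figure D4:**
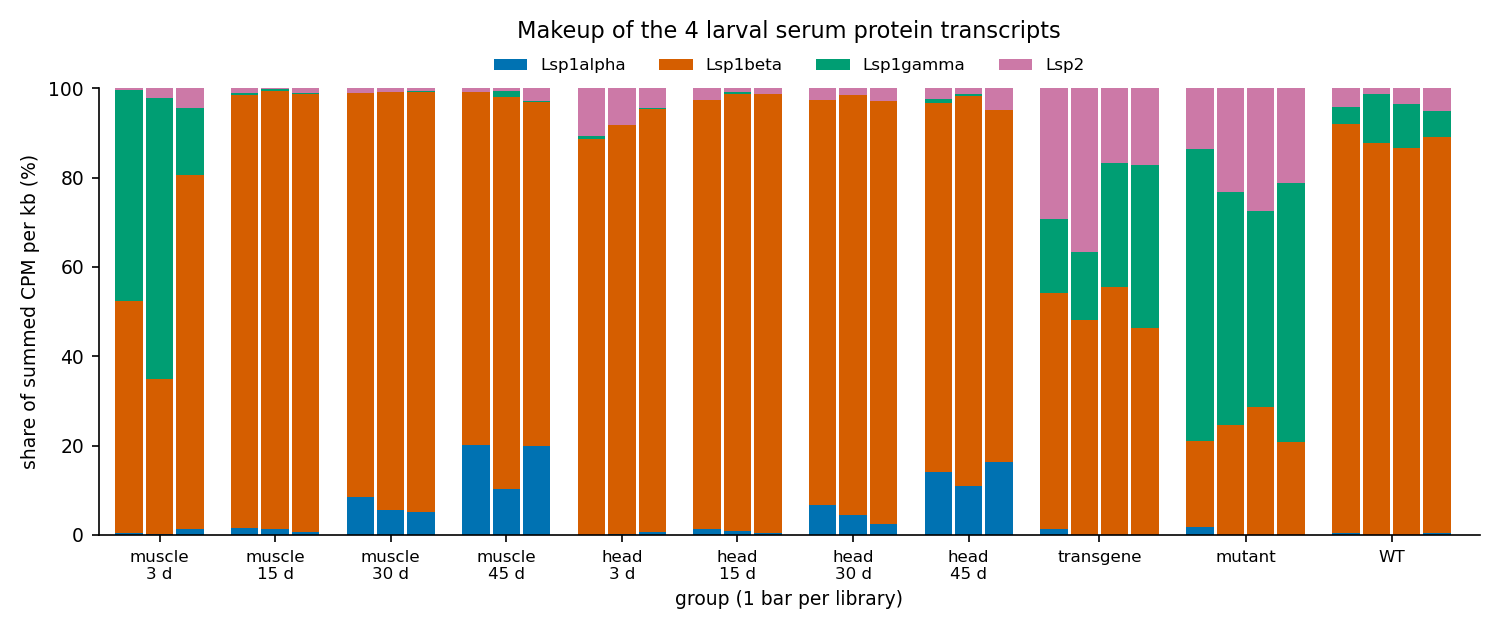
Share of each gene in the summed CPM per kilobase of the 4 larval serum protein genes, in percent, with 1 bar per library. Groups run from muscles and heads by age to the whole-fly genotypes. Lsp1beta fills most bars; Lsp1gamma is broad in 3 d muscles and in mutants, and Lsp1alpha widens at 30 and 45 d.

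The makeup of the 4 hexamerin transcripts, taken per length, followed from these levels. In heads Lsp1beta made up 91.6, 97.4, 93.2 and 82.9% of their sum at 3, 15, 30 and 45 d, and Lsp1alpha 13.8 ± 2.7% at 45 d (SD, n = 3). In muscles the shares of Lsp1beta were 55.3, 97.7, 92.7 and 81.2%. Lsp1gamma made up 41.7 ± 24.5% in muscles at 3 d, between 14.9% in the library that stood apart and 62.9%, and Lsp1alpha 16.8 ± 5.57% at 45 d. In whole flies Lsp1beta made up 50.7 ± 4.18% in the transgene group, 23.3 ± 4.19% in mutants and 88.6 ± 2.04% in WT (SD, n = 4 each). The share of Lsp1gamma was 24.0 ± 9.98% in the transgene group, 54.9 ± 9.05% in mutants and 7.59 ± 3.35% in WT. The sum itself was 8.39 ± 2.85 RPKM in the transgene group, 10.2 ± 1.65 RPKM in mutants and 32.8 ± 11.5 RPKM in WT.

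Regulators of storage genes were counted beside the members. The list held 21 genes of the ecdysone response, nuclear receptors and fat body transcription factors. In heads at 45 d against 3 d 1 of 20 tested rose and 5 fell, where 35.7% of all genes were called. Their median log2 change was -0.03 against 0.01 over all genes. The gene that rose was srp, a GATA factor of fat body and blood cells (0.59 ± 0.09, adjusted p = 7.19e-05). Eip74EF and Eip78C, ecdysone-induced transcription factors, changed by -0.52 ± 0.10 and -0.76 ± 0.15 (adjusted p = 0.000582 and 0.00105), and br, another ecdysone-induced factor, by -0.62 ± 0.14 (adjusted p = 0.00183). EcR, the ecdysone receptor, and Hr3, an ecdysone-induced nuclear receptor, also fell. In muscles at 45 d against 3 d srp rose (0.82 ± 0.23, adjusted p = 0.0256) and slbo, a C/EBP factor, and Hr3 fell (-2.33 ± 0.36 and -0.92 ± 0.29, adjusted p = 0.000649 and 0.0469), out of 21 tested, where 19.3% of all genes were called.

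In mutants against WT 0 of the 21 regulators passed in edgeR and DESeq2 alike, where edgeR called 15.2% of all genes. In edgeR 4 regulators had an unadjusted p under 0.05. The median log2 change of the list was -0.13 against 0.01 over all genes. In the transgene group srp rose against mutants (0.54 ± 0.14, adjusted p = 0.0140) and Hr38, a nuclear receptor, rose against WT (0.80 ± 0.20, adjusted p = 0.00434), each as the only 1 of 21. Of all genes 9.38% were called against mutants and 15.8% against WT.

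Sequence relatives of the members behaved differently from them in part. PPO1 and PPO2, prophenoloxidases of the same protein superfamily as the hexamerins, fell in mutants against WT by 1.71 ± 0.28 and 0.97 ± 0.21 on the log2 scale (adjusted p = 3.02e-05 and 0.00141), and PPO1 remained lower in the transgene group against WT (-1.10 ± 0.25, adjusted p = 0.00180). With age PPO1 and PPO2 fell in muscles at 45 d against 3 d by 1.80 ± 0.25 and 1.85 ± 0.27 (adjusted p = 0.000270 and 0.000417) and in heads by 0.83 ± 0.25 and 0.64 ± 0.20 (adjusted p = 0.0154 and 0.0184). Pdh, a dehydrogenase of the photoreceptor pigment cycle, fell in heads by 0.82 ± 0.24 (adjusted p = 0.0149) and in muscles by 4.08 ± 0.82 (adjusted p = 0.00398). Adh, alcohol dehydrogenase, the relative of Fbp2, rose in heads at 45 d (0.56 ± 0.17, adjusted p = 0.0167) and fell in the transgene group against mutants (-1.25 ± 0.33, adjusted p = 0.0120) and WT (-1.40 ± 0.32, adjusted p = 0.00208). PPO2 rose in the transgene group against mutants (0.71 ± 0.21, adjusted p = 0.0317).

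Markers of the adult fat body, whose larval counterpart makes the storage proteins, rose with age in part. In heads at 45 d against 3 d 7 of 16 tested rose and 1 fell, where 35.7% of all genes were called, and their median log2 change was 0.30 against 0.01 over all genes. The summed level was 13870 to 16870 CPM at 45 d, against 9960 to 11240 CPM at 3 d. In muscles 5 of 16 rose and none fell (19.3% of all genes called), with sums of 16420 to 21370 CPM at 45 d and 8724 to 11310 CPM at 3 d. In mutants against WT 5 of 15 fell and none rose (15.2% of all genes called), with a median log2 change of -0.09 and sums that overlapped, 4650 to 5742 CPM against 4883 to 6470 CPM. In the transgene group against WT 3 rose and 4 fell of 15 (15.8% of all genes called), with sums of 5986 to 6781 CPM in the transgene group. Pepck1 of this list was at 0 throughout. The part of fat body content in the members' changes was not tested.

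Other tissue markers moved with genotype. Of 9 gut markers tested, 8 fell in mutants and 7 in the transgene group against WT, where 15.2% and 15.8% of all genes were called, and the list summed to 2774 to 4299 CPM in the transgene group, 2057 to 3724 CPM in mutants and 6887 to 8812 CPM in WT. Lsp1beta was likewise low in both Gcn5 groups. All 6 accessory gland markers rose in mutants against WT, and in the transgene group all 6 rose against WT and 5 fell against mutants. Like Lsp1gamma they were highest in mutants, and they summed to 2959 to 3379 CPM in the transgene group, 4556 to 5644 CPM in mutants and 2245 to 2411 CPM in WT. Of 5 hemocyte markers tested 4 fell in mutants against WT, with sums of 744 to 825 CPM in mutants and 818 to 1043 CPM in WT. The part of these tissues in the levels of the members was not tested.

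Genes with the most similar pattern were sought over the 12 libraries of a set, by Pearson correlation of log2(CPM + 0.5). In heads Lsp1alpha was most like Spn43Ad, a serpin (r = 0.983), lncRNA:CR32368 (0.969) and RpS20, a ribosomal protein gene (0.966). In muscles it was most like Qsox1, a sulfhydryl oxidase (0.984), CCT8, a chaperonin subunit (0.968), and Xbp1, a transcription factor of the unfolded protein response (0.965). Lsp1beta was most like CG6126, CG6426 and Pcmt in heads (0.929, 0.922 and 0.918) and like Ripalpha, CG16926 and CG4572 in muscles (0.881, 0.860 and 0.837). In whole flies Lsp1beta was most like CG4000, CG8299 and CG11131 (0.969, 0.965 and 0.961), Lsp1gamma like sgl, CG11892 and Hsp83 (0.936, 0.923 and 0.921), and Lsp2 like JTBR, CG32755 and Nadk2 (0.916, 0.898 and 0.861). Head Lsp2 was most like CG14683, Uggt and CG34228 (0.878, 0.865 and 0.862). No member was among the most similar genes of another. The correlation of Lsp1alpha with Lsp1beta was 0.106 in heads and 0.123 in muscles, that of Lsp1alpha with Lsp1gamma -0.79 in muscles, and that of Lsp1beta with Lsp1gamma -0.46 in whole flies. These libraries share their ages or genotypes, so the values describe a common course over groups.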

How the data were processed

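Members and lists were chosen with earlier results of these data known. For whole flies the authors deposited gene counts of fragments, which featureCounts 2.0.1 assigned without strand to FlyBase r6.36 exons, per the file headers. For heads and muscles the deposited values are whole-number counts per gene; the submitters' processing notes name STAR 2.7.6a, Trim Galore 0.6.6, DESeq2 and featureCounts 2.0.1. These tables end in 5 tallies laid out as htseq-count writes them, so the counting tool is uncertain, and neither strand setting nor annotation is stated for them. They entered no total: reads without a feature were 3.78 to 4.35% in heads and 1.22 to 2.79% in muscles, and reads not uniquely aligned 4.99 to 6.92% and 5.39 to 36.6%. The authors also deposited, per genotype comparison, a log2 fold change, a p-value and an adjusted p-value, a test score (the Wald statistic) and a signal column of mean counts divided by size factors. Only log2 changes and adjusted p-values were used.

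FlyBase symbols matched 17358 of 17494 and 17547 of 17612 gene identifiers. Genes were kept by filterByExpr (count 10, total 15), so that the head set held 9035 genes, the muscle set 8866, the set of both tissues 9538 and the whole-fly set 10723. Each set was fitted by its groups with TMM scaling and the quasi-likelihood test of edgeR 4.0.16 in R 4.3.3. Every adjusted p is a Benjamini-Hochberg value from edgeR over all genes of a comparison, at a threshold of 0.05, unless another tool is named. The SE of a log2 change is its size over the root of the F statistic, and its 95% interval takes the fit's degrees of freedom. Changes with age come from a fit of that tissue alone. Differences between tissues, and the CPM levels of both, come from the fit of both tissues together. RPKM is CPM per kilobase of r6.36 exon length. Ratios of subunits were tested by exact permutation (scipy 1.17.1), and counting intervals are exact at 95%.

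On simulated counts of 8949, 8752, 9311 and 10562 genes, for heads at 45 d against 3 d, muscles at 45 d against 3 d, muscles against heads at 3 d and mutants against WT, the fits recovered 86.8, 56.3, 79.4 and 84.5% of genes changed by 1 on the log2 scale and 99.1, 96.8, 97.8 and 99.0% of those changed by 2. False calls were 3.61, 1.32, 7.53 and 4.28% of the genes called. Every gene of a set was simulated with the same relative spread between replicates. Lsp1beta alone ranged from 44.5 to 193 CPM in heads of 3 d, so these rates may not hold for the members. Replicate pairs differed by a chi-square per gene of at least 1.79, so none was counted as a duplicate.

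Named genes are the 6 members; for each member with 10 or more counts in at least 6 of the 12 libraries of a set, the 3 genes most correlated with it; from 2 lists (regulators, sequence relatives) up to 4 genes past the threshold with the smallest p in a comparison; and Gcn5. EcR and Hr3 in heads were named beyond this rule. Of the marker lists, plin1 had no match and was not analysed here. Alternatives were other scalings, no filter on low counts, DESeq2 1.42.0, fits of the groups compared alone, a replicate block and leaving out each library.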

Additional observations from a re-analysis of the deposited data

Results flagged for a closer look

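The change of Lsp1gamma from 3 to 45 d differed between tissues. The log2 change in muscles minus that in heads was -8.325 (SE 1.95; edgeR adjusted p = 0.00924). Muscles had 0 to 1.25 CPM at 45 d against 32.3 to 129 CPM at 3 d, lower in 3 of 3 libraries, and heads had 0 to 0.862 CPM at 45 d against 0 to 0.303 CPM at 3 d. The call was absent in a fit of the 4 groups alone (-8.33, adjusted p = 0.0806) and without the first head library of 45 d (-7.44, adjusted p = 0.175), while it remained in the other alternatives run, with adjusted p up to 0.0398. In that comparison the heads held 2 counts at 3 d and 6 counts at 45 d, and Lsp1gamma was among the tested genes only through the muscles of 3 d.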

How the results depend on the processing

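The calls in whole flies for mutants against WT (2 members) and the transgene group against WT (1 member) were the same in number under every alternative run, the authors' deposited table included, as were those in muscles at 45 d against 3 d (2 members). Without a filter on low counts 3 members were called in heads at 15 d, 3 at 30 d and 4 at 45 d against 3 d, 2 in muscles at 45 d against 15 d, 1 for muscles against heads at 30 d and 2 for the transgene group against mutants (Lsp1beta higher). Of all 14551 genes in that head fit 719 were called higher and 771 lower at 15 d. At 30 d these were 1443 and 1509, and at 45 d 1746 and 1590. In the other 3 comparisons 86 and 61 of 14194, 2155 and 2374 of 15087, and 677 and 483 of 15475 genes were called. DESeq2 called 1 in heads at 45 d against 15 d, 2 in muscles at 15 d against 3 d and 2 at 45 d against 15 d, and 1 for muscles against heads at 30 d. In the same order it called 323 genes higher and 304 lower of 9239, and 271 and 685 of 9844. The last 2 were 183 and 181 of 9844, and 2347 and 2348 of 11312. Fits of the groups compared alone called 2 in muscles at 45 d against 15 d, 2 for muscles against heads at 30 d and 0 for the tissue difference in the change from 3 to 45 d. In the same order they called 732 genes higher and 755 lower of 8630, 2926 and 2739 of 9030, and 30 and 216 of 9337. Scaling by library size alone shifted the median log2 change of all genes by 0.74, 0.81 and 0.89 in muscles at 15, 30 and 45 d against 3 d and by -0.89 for muscles against heads at 3 d, and called 5827 genes higher and 351 lower in muscles at 45 d against 3 d, where TMM called 728 higher and 980 lower. With it 3 members were called in muscles at 15 d against 3 d, where 4911 genes were called higher and 234 lower of 8866. For muscles against heads at 3 d 3 members were called, where 1087 genes were called higher and 6125 lower of 9538. In that scaling Lsp1beta was at 0.67 in muscles at 45 d against 3 d, at -0.16 and -0.024 for muscles against heads at 15 and 45 d, Lsp1gamma at -0.027 for muscles against heads at 45 d, and the tissue difference in the change of Lsp1alpha at 0.084; none of these was called. For DESeq2 and the unfiltered fits the cause was not tested.

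Leaving out 1 library at a time gave 1 to 2 calls in heads at 30 d against 3 d, 1 to 3 at 45 d against 3 d and 1 to 2 at 45 d against 15 d, 1 to 2 in muscles at 15 d against 3 d and 0 to 1 at 45 d against 15 d, and 0 to 1 for muscles against heads at 45 d and for the tissue difference. Calls over all genes moved as well. In muscles at 45 d against 15 d such fits called 7 to 48 genes higher and 20 to 34 lower, against 82 and 68 with every library. Some values that were called in no such fit changed sign. Lsp2 ranged between -1.15 and 0.40 in heads at 45 d against 15 d, Lsp1beta between -0.47 and 0.27 in muscles at 45 d against 3 d and Lsp1gamma between -2.04 and 0.10 at 45 d against 15 d. For muscles against heads, Lsp1alpha ranged between -0.12 and 2.02 at 3 d and between -0.013 and 1.36 at 15 d, and Lsp1beta between -0.76 and 0.10 at 3 d, -0.17 and 0.28 at 15 d and -0.39 and 0.22 at 30 d. Lsp1gamma ranged between -1.73 and 1.91 at 30 d and between -1.41 and 1.03 at 45 d, and Lsp2 between -1.83 and 0.11 at 45 d. The tissue difference ranged between -1.50 and 0.62 for Lsp1alpha and between -0.88 and 1.22 for Lsp2, and Lsp2 in the transgene group against mutants between -0.24 and 0.37. The difference in the ratio of Lsp1beta to Lsp1gamma between the transgene group and mutants ranged between 2.23 and 2.68.

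Over all genes, libraries of 1 tissue with the same replicate number did not deviate together (median correlation 0.017 for heads, -0.0038 for muscles and -0.0042 for whole flies), and correlations of same-numbered head and muscle libraries of 1 age were between -0.26 and 0.21, so the numbers were not taken as pairs, although 3 members did deviate together between tissues. No fit paired heads and muscles by age and number, since the replicate block used the number over all ages. Tissue differences of these 3 members thus rest on unpaired fits. With the replicate number as a block 2 members were called in muscles at 15 d and 3 at 30 d against 3 d, Lsp1beta being added in both, and no other count of members changed. Of 8866 genes this block fit called 119 higher and 457 lower at 15 d, and 355 and 665 at 30 d. Counts of 0 to 17 per library limit Lsp1alpha at 3 and 15 d, Fbp1 and Fbp2 throughout, and Lsp1gamma outside 3 d muscles and whole flies.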

Other observations

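Although replicate numbers do not pair these libraries over all genes, replicate deviations of Lsp1alpha, Lsp1beta and Lsp2 tended to go together between tissues of an age. At 30 d Lsp1beta had 173, 228 and 243 CPM in muscles, against 132, 237 and 324 CPM in heads, in the order of the labels' replicate numbers. At 15 d Lsp1beta had 270, 156 and 267 CPM in muscles, against 275, 140 and 247 CPM in heads, with the same number lowest in both. The order differed at 3 d, with 83.2, 78.4 and 189 CPM in muscles against 44.5, 171 and 193 CPM in heads. Over the 12 pairs of libraries of 1 age and number, the deviations from the group means in log2(CPM + 0.5) had a correlation of 0.65 for Lsp1beta, 0.79 for Lsp1alpha and 0.66 for Lsp2, and -0.29 for Lsp1gamma. The median over 9502 genes was 0.0133, and 314 genes had a higher value than Lsp1beta. Correlations over genes between such pairs of libraries ranged between -0.26 and 0.21. This comparison was chosen after the values were seen and has no test.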
